A study of Mus musculus with 12 samples.

Results

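Collagens are secreted or membrane-anchored proteins whose chains wind around each other into a helix. Fibrillar collagens build the fibres of connective tissue, network collagens such as type IV form the sheet of the basement membrane under an epithelium, and transmembrane collagens span the cell surface. In stratified epithelia such as that of the tongue, the basal cells make type IV and type VII collagen for the basement membrane and type XVII collagen for the hemidesmosomes that fasten them to it, while most fibrillar collagen comes from fibroblasts. The collagens described here are all 44 genes of the 55367 in the count table whose symbol is Col, a type number, the letter a and a chain number. They fall into 11 fibrillar, 9 basement membrane, 4 transmembrane and 20 other genes, the last of them fibril-associated, beaded-filament, hexagonal-network and minor types.

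The libraries are poly(A) RNA sequencing of mouse posterior-tongue organoids, epithelial tissues grown in culture from the foliate papilla (FoP) and the circumvallate papilla (CVP), and the comparison asks what changes with loss of the forkhead transcription factor Foxe1. Foxe1 knock-out FoP organoids are clones 2.5 and 2.4, set against FoP wild type (WT), and Foxe1 knock-out CVP organoids are clones 2.10 and 2.9, set against CVP WT, with 2 duplicate libraries of each culture and 12 libraries in all. All lines were cultured, no WT library carries a clone label, and the labels name the cell types only as various and the knock-out only as a genetic modification, without strain, animals or method, so the knock-out label cannot be told apart from the derivation of a clone. Duplicates share a culture, so p-values measure only the spread between these libraries, part of which can be technical.

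The libraries held 59.3 to 73.6 M counts. The Foxe1 transcript did not separate the labels: it had 487 to 1527 counts in the knock-out libraries, with clones 2.5 and 2.10 below their WT and clones 2.4 and 2.9 above it, against 989 to 1144 counts in the WT libraries. All 10 epithelial markers were expressed, with summed levels of 10600 to 15550 CPM across all libraries (counts per M of normalised library total). Of 14 fibroblast markers, 5 stayed under 10 counts in every library, among them Lum and Dpt at 0 throughout. Others were present in every library: Vim had 1970 to 8950 counts, Prrx1 72 to 1834 and Pdgfra 53 to 349. In bulk RNA, fewer cells of a type and less RNA per cell cannot be told apart.

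Of the 44 collagens, 33 reached 10 counts in at least 2 libraries, and the same 33 were among the 17076 genes tested. All 9 basement membrane genes passed, as did 9 of 11 fibrillar, 3 of 4 transmembrane and 12 of 20 other genes. The 11 below that level never exceeded 14 counts in a library. They are Col3a1, the second major collagen of connective tissue, with 0 to 9 counts, Col24a1 (fibrillar), Col13a1 (transmembrane), Col14a1, Col19a1 and Col22a1 (fibril-associated), Col10a1 (the collagen of hypertrophic cartilage) and the type VI chains Col6a3, Col6a4, Col6a5 and Col6a6. Passing the count minimum through the group where a gene is high favours genes that differ, so counts over the 33 are read only against the same count over all tested genes. That share is given for the main fits only. Counts under alternative fits, and at an unadjusted p, stand without it and show only how the calls moved.

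The type IV genes lie in head-to-head pairs, and the promoter windows of 2 pairs are shown because the members of each pair differ in level or behaviour below. The windows run from 250 bases before to 50 bases after each start and come from RefSeq (GRCm38.p6), read on the strand of the gene. Capitals mark GC boxes (GGGCGG) and CCAAT boxes (CCAAT), searched on both strands. Col4a1 (chr8:11312777-11313076, minus strand) and Col4a2 (chr8:11312555-11312854, plus strand) have starts 21 bases apart, and their windows share 78 bases. Col4a6 (chrX:141474027-141474326, minus strand) and Col4a5 (chrX:141475169-141475468, plus strand) have starts 1343 bases apart.
Col4a1: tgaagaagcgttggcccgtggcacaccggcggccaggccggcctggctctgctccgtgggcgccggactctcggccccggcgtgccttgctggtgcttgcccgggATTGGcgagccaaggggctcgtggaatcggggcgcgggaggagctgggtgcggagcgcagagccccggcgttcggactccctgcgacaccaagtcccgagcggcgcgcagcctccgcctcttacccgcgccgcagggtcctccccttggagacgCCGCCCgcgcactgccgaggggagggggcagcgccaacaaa
Col4a2: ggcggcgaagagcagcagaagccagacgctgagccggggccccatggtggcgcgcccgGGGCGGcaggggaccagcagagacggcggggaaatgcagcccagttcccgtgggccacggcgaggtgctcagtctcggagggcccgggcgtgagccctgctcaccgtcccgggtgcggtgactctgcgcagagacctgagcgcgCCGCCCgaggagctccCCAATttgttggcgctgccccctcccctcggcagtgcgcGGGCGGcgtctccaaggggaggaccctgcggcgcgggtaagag
Col4a6: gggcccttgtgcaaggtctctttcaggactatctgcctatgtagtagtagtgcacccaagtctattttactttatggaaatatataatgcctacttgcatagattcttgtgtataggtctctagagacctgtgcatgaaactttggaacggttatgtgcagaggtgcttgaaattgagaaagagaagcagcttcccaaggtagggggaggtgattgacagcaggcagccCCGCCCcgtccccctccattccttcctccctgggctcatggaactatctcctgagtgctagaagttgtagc
Col4a5: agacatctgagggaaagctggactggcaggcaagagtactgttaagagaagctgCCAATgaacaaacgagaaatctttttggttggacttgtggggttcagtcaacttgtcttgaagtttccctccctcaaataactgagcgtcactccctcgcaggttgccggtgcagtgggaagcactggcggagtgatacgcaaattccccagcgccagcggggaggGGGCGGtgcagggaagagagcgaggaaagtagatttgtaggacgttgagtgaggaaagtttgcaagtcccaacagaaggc

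RefSeq windows were found for 35 of the 44 collagens, 38 windows in all. A GC box stood in 23 of these 38 windows, against 35.7% of all 32851 mouse promoter windows, and a CCAAT box in 13, against 37.4%. The letters TATAAA occurred in 5 windows, against 13.6% of all windows, and the forkhead core TGTTTA in 6, against 13.4%, both searched on either strand. A match describes letters in a window and shows no binding.

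Col17a1, the transmembrane collagen of hemidesmosomes, held more of the collagen counts than any other member in each library. It took 58.3 to 60.3% of them in FoP knock-out, 48.5 to 48.8% in FoP WT, 49.5 to 54.3% in CVP knock-out and 47.4 to 48.0% in CVP WT. All collagens together took 0.557 to 0.589% of counts in FoP knock-out, against 0.461 to 0.462% in FoP WT, and 0.642 to 0.702% in CVP knock-out, against 0.396 to 0.405% in CVP WT. On the scale of CPM per kb of exon, averaged over the 12 libraries, the level of Col17a1 was 497. The next were Col18a1, a basement membrane collagen that yields endostatin, at 125, the network-forming Col8a1 at 43.6, Col9a3, a chain of the fibril-associated type IX, at 38.8, and the type IV chain Col4a5 at 38.6 CPM per kb. The ranges over the libraries of the last 3 overlap, from 26.4 to 65.5 for Col8a1, 10.7 to 107 for Col9a3 and 34.8 to 41.7 CPM per kb for Col4a5. Col7a1, which forms the anchoring fibrils under the basement membrane, followed at 32.8 CPM per kb. The chains of type I collagen, the bulk protein of connective tissue, stood at 0.135 (Col1a1) and 0.108 (Col1a2) CPM per kb. The most abundant fibrillar gene was Col5a2 at 9.24 CPM per kb, while its usual partner chain Col5a1 stood at 0.175.

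**Figure D1:**
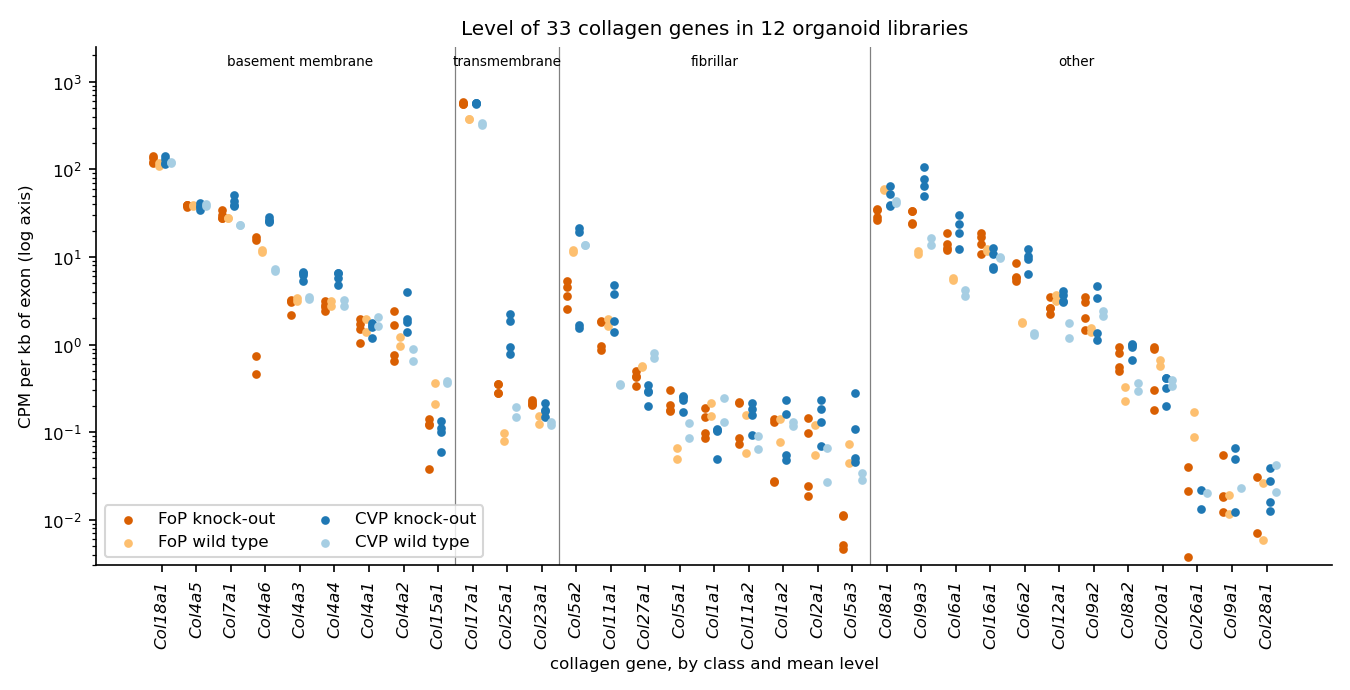
Level of each of the 33 tested collagen genes in CPM per kb of exon (log axis), 1 dot per library, coloured by line and label; values of 0 are not drawn. Col17a1 lies at 319 to 589 CPM per kb, and Col1a1 and Col1a2 do not exceed 0.243 and 0.235 CPM per kb.

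Chains that share a protein were often far apart in level. Type VI filaments are built from an alpha1, an alpha2 and a further chain. Col6a1 and Col6a2 had 1128 counts or more and 767 counts or more in every library, but the further chains Col6a3 to Col6a6 had at most 13 counts. For type IX, Col9a2 stood at 0.0615 to 0.103 of the per-kb level of Col9a3 in FoP knock-out and 0.118 to 0.145 in FoP WT, and at 0.0209 to 0.0442 in CVP knock-out and 0.129 to 0.180 in CVP WT; Col9a1, its other chain, had at most 22 counts. Col8a2 likewise stood at no more than 0.0329 of the per-kb level of Col8a1 in any library. Col4a4 and Col4a3, which assemble with Col4a5 in the basement membranes of the kidney and lung, kept a ratio of 0.83 to 1.10 per kb over the 12 libraries.

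The comparison of knock-out with WT in FoP organoids placed 7 collagens higher and 3 lower of 33 (30.3%), where 28.8% of all tested genes passed (13.5% higher and 15.3% lower). The median log2 fold change of the 33 was -0.09, against 0.01 over all tested genes. By class, 1 higher and 1 lower of 9 fibrillar, 0 higher and 1 lower of 9 basement membrane, 2 higher and 0 lower of 3 transmembrane, and 4 higher and 1 lower of 12 other collagens passed. Here and in each result below, p-values come from edgeR's quasi-likelihood test, adjusted by Benjamini-Hochberg across the whole table and called under 0.05. With duplicates summed per culture, 0 passed in either direction by the same edgeR test (7 higher and 3 lower had an unadjusted p under 0.05). DESeq2 on the single libraries placed 8 higher and 4 lower. The shares of all tested genes in these alternative fits are not given. Whether the loss of calls was particular to collagens therefore cannot be said. Without FoP WT duplicate 1, 4 collagens were higher, and without FoP WT duplicate 2, 3 were higher and 0 lower.

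In CVP organoids, knock-out against WT placed 13 collagens higher and 2 lower of 33 (45.5%), where 46.4% of all tested genes passed (23.5% higher and 22.9% lower). The share of collagens past the threshold was therefore near that of all genes, with more of them on the higher side. The median log2 fold change of the 33 was 0.86, against 0.03 over all tested genes. By class, 3 higher and 1 lower of 9 fibrillar, 3 higher and 1 lower of 9 basement membrane, 2 higher and 0 lower of 3 transmembrane, and 5 higher and 0 lower of 12 other collagens passed. With duplicates summed per culture, 8 were higher and 2 lower: Col7a1, Col4a3, Col4a4, Col9a3, Col6a1, Col6a2, Col12a1 and Col17a1 were higher, and Col15a1 and Col27a1 lower. The share of all tested genes in that fit is not given, so the count shows only how the calls moved.

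**Figure D2:**
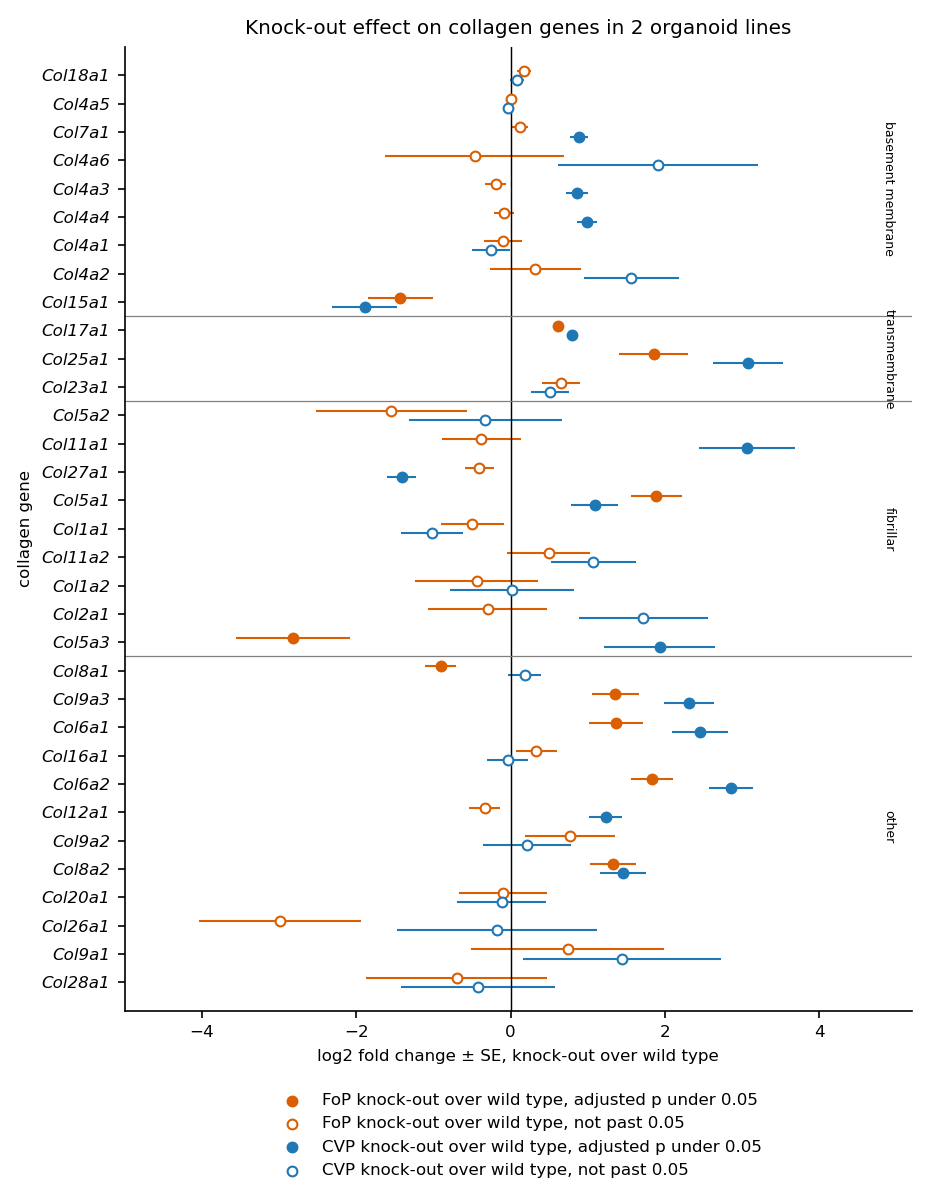
Log2 fold change ± SE of knock-out over wild type for the 33 tested collagens, in FoP (orange) and CVP (blue), by class; filled points have an adjusted p under 0.05. In CVP 13 filled points lie above 0 and 2 below, and in FoP 7 lie above 0 and 3 below.

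The same 7 collagens that were higher in FoP knock-out were among the 13 higher in CVP knock-out, and 1 collagen, Col15a1, was lower in both. Being higher in both lines held for 21.2% of the 33 collagens and 9.2% of all tested genes, and being lower in both for 3.03% and 10.1%. The comparisons of the lines share no library but share the estimate of spread. Groups without overlap, as described below, were common over all 17076 tested genes. In FoP 4082 lay wholly higher and 4411 wholly lower in knock-out, and in CVP 5419 and 5123. Of the 33 collagens, 9 lay wholly higher and 6 wholly lower in FoP, and 18 and 3 in CVP.

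Col17a1 was in this group. In FoP, Col17a1 had 3472 and 3358 CPM in clone 2.5 and 3542 and 3329 CPM in clone 2.4, against 2241 and 2244 CPM in WT. In CVP, Col17a1 had 3371 and 3416 CPM in clone 2.10 and 3460 and 3473 CPM in clone 2.9, against 2038 and 1915 CPM in WT. All 8 knock-out libraries lay above all 4 WT libraries. For Col17a1 the log2 fold change was 0.61 ± 0.06 in FoP (1.53-fold, adjusted p = 2.64e-05) and 0.80 ± 0.06 in CVP (1.735-fold, adjusted p = 1.62e-06). Each of the 4 clones was higher than its WT, by 0.61 in clone 2.5, 0.615 in clone 2.4, 0.78 in clone 2.10 and 0.81 in clone 2.9 on the log2 scale. The gene lies on chromosome 19 (47646344 to 47692094, minus strand, GRCm38).

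Col25a1, a transmembrane collagen first described in neurons, is expressed at far lower levels. In FoP, Col25a1 had 3.61 and 3.59 CPM in clone 2.5 and 4.62 and 4.61 CPM in clone 2.4, against 1.02 and 1.26 CPM in WT. In CVP, Col25a1 had 12.1 and 10 CPM in clone 2.10 and 24.1 and 29.1 CPM in clone 2.9, against 1.93 and 2.51 CPM in WT. The groups did not overlap in either line, and clone 2.9 stood above clone 2.10. For Col25a1 the log2 fold change was 1.85 ± 0.45 in FoP (adjusted p = 0.0116) and 3.08 ± 0.45 in CVP (adjusted p = 0.000327). The FoP call was lost without either FoP WT duplicate (adjusted p = 0.103 and 0.0655) and without clone 2.4 (0.0697), and with culture as a random block (0.287). Col23a1, the other transmembrane collagen tested, had 1.25 ± 0.07 CPM in FoP knock-out and 0.792 ± 0.113 CPM in FoP WT, and 1.03 ± 0.16 CPM in CVP knock-out and 0.719 ± 0.043 CPM in CVP WT (SD, n = 4 and n = 2), and passed in neither line (adjusted p = 0.0636 and 0.107).

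The type VI genes Col6a1 and Col6a2, neighbours on the minus strand of chromosome 10 (76708792 to 76726168 and 76595762 to 76623630, GRCm38), were both higher in knock-out organoids of each line. In FoP, Col6a2 had 48.2 and 70.1 CPM in clone 2.5 and 49.5 and 44.4 CPM in clone 2.4, against 15.0 and 14.8 CPM in WT. In CVP, Col6a2 had 78.7 and 52.7 CPM in clone 2.10 and 102 and 85.2 CPM in clone 2.9, against 11.2 and 10.8 CPM in WT. The WT libraries were below all knock-out libraries. Col6a2 changed by 1.83 ± 0.27 log2 in FoP (3.56-fold, adjusted p = 0.0011) and by 2.85 ± 0.29 in CVP (7.23-fold, adjusted p = 4.95e-05).

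In FoP, Col6a1 had 53.3 and 83.2 CPM in clone 2.5 and 61.3 and 55.0 CPM in clone 2.4, against 23.8 and 25.3 CPM in WT. In CVP, Col6a1 had 81.2 and 53.8 CPM in clone 2.10 and 133 and 105 CPM in clone 2.9, against 18.4 and 15.7 CPM in WT. Again no knock-out library reached down to the WT libraries. For Col6a1 the log2 fold change was 1.36 ± 0.35 in FoP (adjusted p = 0.0174) and 2.45 ± 0.37 in CVP (adjusted p = 0.00061). The FoP call on Col6a1 was lost without FoP WT duplicate 1 (adjusted p = 0.112), FoP WT duplicate 2 (0.0936) or clone 2.5 (0.059), and with culture as a random block (0.0702).

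Col9a3 lies on chromosome 2 and overlaps exons of Tcfl5 on the other strand, from which reads can be told apart only if the counting used strand. In FoP, Col9a3 had 131 and 129 CPM in clone 2.5 and 93.1 and 90.8 CPM in clone 2.4, against 45.4 and 41.1 CPM in WT. In CVP, Col9a3 had 411 and 299 CPM in clone 2.10 and 248 and 190 CPM in clone 2.9, against 63.3 and 52.4 CPM in WT. All knock-out libraries were above all WT libraries, with clone 2.10 at the top. For Col9a3 the log2 fold change was 1.36 ± 0.31 in FoP (2.56-fold, adjusted p = 0.0105) and 2.31 ± 0.32 in CVP (4.96-fold, adjusted p = 0.000397). Without FoP WT duplicate 1, FoP WT duplicate 2 or clone 2.5 the FoP value no longer passed (adjusted p = 0.062, 0.0831 and 0.0562).

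Col8a2, the partner chain of Col8a1 in short-chain networks such as that under the corneal endothelium, was low but higher with the knock-out label. In FoP, Col8a2 had 2.24 and 2.48 CPM in clone 2.5 and 4.22 and 3.56 CPM in clone 2.4, against 1.47 and 1.02 CPM in WT. In CVP, Col8a2 had 4.19 and 2.95 CPM in clone 2.10 and 4.51 and 4.45 CPM in clone 2.9, against 1.32 and 1.62 CPM in WT. The groups were apart in both lines. For Col8a2 the log2 fold change was 1.33 ± 0.30 in FoP (adjusted p = 0.00521, and 0.0797 without FoP WT duplicate 2) and 1.45 ± 0.30 in CVP (adjusted p = 0.0015).

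The fibrillar chain Col5a1, which sets the diameter of type I fibrils, is the remaining member higher in both. In FoP, Col5a1 had 1.75 and 2.57 CPM in clone 2.5 and 1.49 and 1.52 CPM in clone 2.4, against 0.421 and 0.566 CPM in WT. In CVP, Col5a1 had 1.45 and 2.12 CPM in clone 2.10 and 1.99 and 2.20 CPM in clone 2.9, against 1.08 and 0.736 CPM in WT. The groups did not overlap, though in CVP the lowest knock-out library was close to the higher WT library. For Col5a1 the log2 fold change was 1.89 ± 0.33 in FoP (adjusted p = 0.00106) and 1.09 ± 0.31 in CVP (adjusted p = 0.011, and 0.122 without CVP WT duplicate 2). Exons of Col5a1 overlap 2810430I11Rik and Gm13372 on the other strand.

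Col15a1, a basement membrane collagen related to Col18a1, was the member lower in both lines. In FoP, Col15a1 had 0.763 and 0.781 CPM in clone 2.5 and 0.243 and 0.898 CPM in clone 2.4, against 1.34 and 2.28 CPM in WT. In CVP, Col15a1 had 0.376 and 0.711 CPM in clone 2.10 and 0.853 and 0.634 CPM in clone 2.9, against 2.33 and 2.44 CPM in WT. Every knock-out library was below every WT library, at levels of few counts. For Col15a1 the log2 fold change was -1.43 ± 0.42 in FoP (adjusted p = 0.023, and 0.247 without FoP WT duplicate 2) and -1.89 ± 0.42 in CVP (adjusted p = 0.00257).

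**Figure D3:**
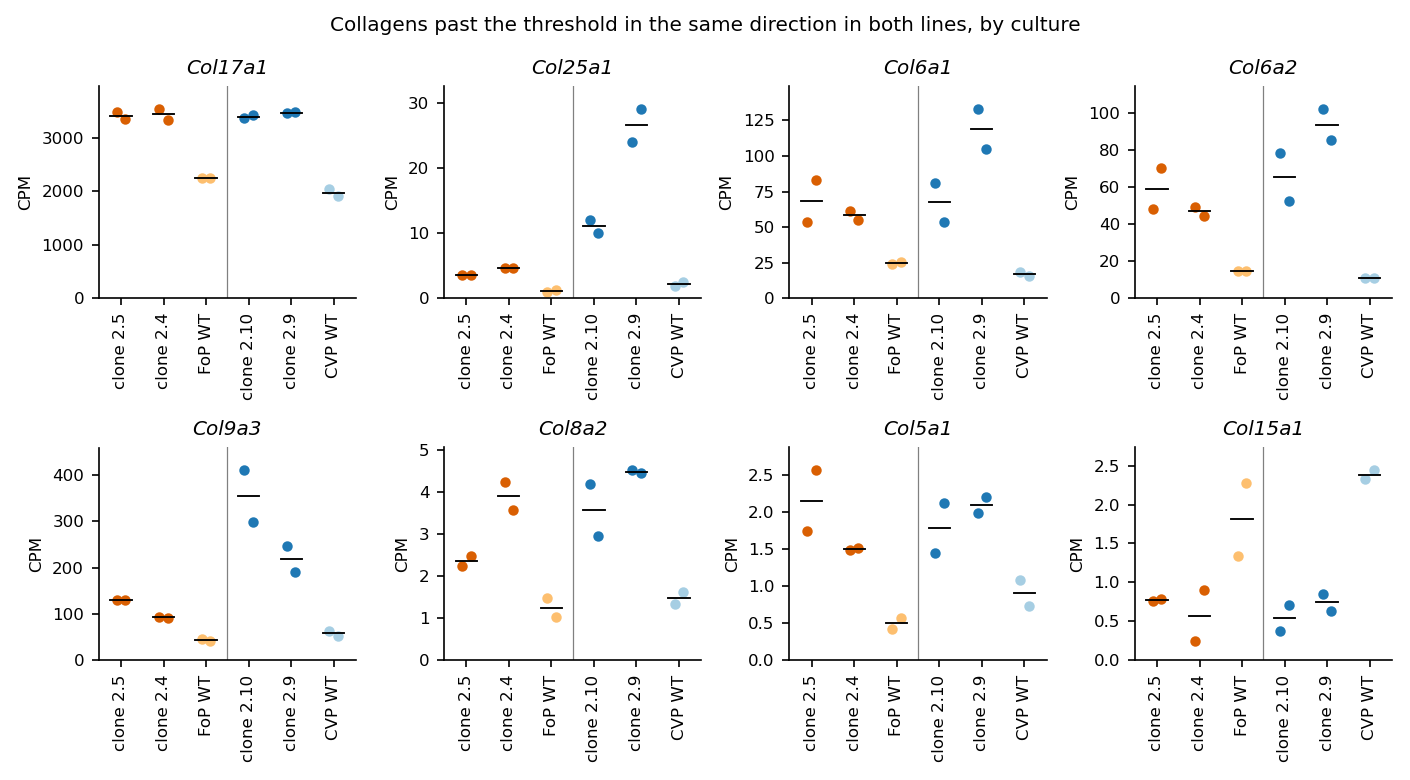
CPM of the 8 collagens past the threshold in the same direction in both lines, 2 dots per culture (duplicates) with their mean as a bar; cultures from left to right are clones 2.5 and 2.4 and FoP wild type, then clones 2.10 and 2.9 and CVP wild type. In each panel but Col15a1 the wild type dots lie below the knock-out dots of their line, as for Col17a1, with 3329 to 3542 CPM in the knock-out libraries against 1915 to 2244 CPM in the wild type libraries.

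Whether the knock-out effect differed between the lines was tested as the FoP effect minus the CVP effect. This difference passed for 8 of 33 collagens (24.2%), 1 higher and 7 lower, where 15.8% of all tested genes passed (7.28% higher and 8.49% lower). With duplicates summed per culture 0 passed in edgeR (1 higher and 5 lower had an unadjusted p under 0.05), and DESeq2 on single libraries gave 1 higher and 9 lower. Without clone 2.10, 2 were higher and 11 lower. Without CVP WT duplicate 1 or without CVP WT duplicate 2, 4 were lower and 0 higher, and without clone 2.5, FoP WT duplicate 1 or FoP WT duplicate 2, 0 were higher.

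Among the 7 are Col4a3 and Col4a4, which lie head to head on chromosome 1 (82586921 to 82722059, plus strand, and 82448423 to 82586849, minus strand). In FoP, Col4a3 had 21.9 and 30.6 CPM in clone 2.5 and 32.1 and 30.9 CPM in clone 2.4, against 34.2 and 31.6 CPM in WT. In CVP, Col4a3 had 61.7 and 53.3 CPM in clone 2.10 and 64.6 and 67.6 CPM in clone 2.9, against 34.8 and 33.2 CPM in WT. The CVP knock-out libraries were above all others, while the FoP groups overlapped. Col4a3 had a log2 fold change of -0.19 ± 0.14 in FoP (adjusted p = 0.341) and 0.86 ± 0.14 in CVP (adjusted p = 0.000443), a difference of -1.05 ± 0.19 (adjusted p = 0.00574). Exons of Col4a3 overlap C430014B12Rik on the other strand.

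In FoP, Col4a4 had 25.6 and 28.8 CPM in clone 2.5 and 33.3 and 29.7 CPM in clone 2.4, against 33.5 and 28.9 CPM in WT. In CVP, Col4a4 had 61.1 and 51.4 CPM in clone 2.10 and 68.8 and 69.4 CPM in clone 2.9, against 33.8 and 29.3 CPM in WT. The pattern was that of Col4a3, with overlap in FoP and none in CVP. The difference of the effects was -1.08 ± 0.18 (adjusted p = 0.00376), from 0.99 ± 0.13 in CVP (adjusted p = 0.000116) and -0.09 in FoP. Col4a5, their partner chain, had 261 ± 8.70 CPM in FoP knock-out and 261 ± 1.73 CPM in FoP WT, and 255 ± 19.5 CPM in CVP knock-out and 262 ± 7.02 CPM in CVP WT (SD, n = 4 and n = 2). Its groups overlapped in both lines (adjusted p = 0.999 in FoP and 0.649 in CVP). The per-kb level of Col4a5 was 12.01 to 18.0 times that of Col4a3 in FoP knock-out, against 11.4 to 12.2 times in FoP WT, and 5.62 to 7.23 in CVP knock-out, against 11.4 to 11.5 in CVP WT.

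Col7a1 had 309 ± 32.1 CPM in FoP knock-out and 285 ± 1.31 CPM in FoP WT, and 443 ± 57.9 CPM in CVP knock-out and 239 ± 0.964 CPM in CVP WT (SD, n = 4 and n = 2). The groups were apart in CVP, with 392 to 521 CPM in knock-out and 238 to 240 CPM in WT. Its log2 fold change was 0.89 ± 0.11 in CVP (adjusted p = 6.27e-05), and the FoP effect was lower by a log2 difference of -0.77 ± 0.15 (adjusted p = 0.00737). Col18a1 had 911 ± 75.4 CPM in FoP knock-out and 806 ± 40.7 CPM in FoP WT, and 900 ± 90.01 CPM in CVP knock-out and 848 ± 19.8 CPM in CVP WT (SD, n = 4 and n = 2), and passed in neither line (adjusted p = 0.18 and 0.481).

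Col11a1, a fibrillar chain best known from cartilage, had one of the 2 log2 fold changes above 3 among the tested collagens in CVP, beside Col25a1. In FoP, Col11a1 had 23.9 and 23.1 CPM in clone 2.5 and 11.0 and 12.2 CPM in clone 2.4, against 24.96 and 20.5 CPM in WT. In CVP, Col11a1 had 61.3 and 48.1 CPM in clone 2.10 and 23.4 and 17.9 CPM in clone 2.9, against 4.45 and 4.57 CPM in WT. FoP groups overlapped and CVP groups did not, and the FoP WT libraries were far above the CVP WT libraries. For Col11a1 the log2 fold change was 3.06 ± 0.62 in CVP (8.36-fold, adjusted p = 0.00355) and -0.38 in FoP, a difference of -3.44 ± 0.78 (adjusted p = 0.02). That difference did not pass without CVP WT duplicate 1 or 2 (adjusted p = 0.0964 and 0.0804), FoP WT duplicate 1 or 2 (0.0678 and 0.0535) or clone 2.4 (0.0519), or with culture as a random block (0.115).

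Col12a1, a fibril-associated collagen of dense connective tissue, also had different levels in the WT lines. In FoP, Col12a1 had 33.8 and 39.7 CPM in clone 2.5 and 39.5 and 53.2 CPM in clone 2.4, against 56.2 and 48.5 CPM in WT. In CVP, Col12a1 had 46.5 and 47.3 CPM in clone 2.10 and 55.3 and 62.0 CPM in clone 2.9, against 26.9 and 18.1 CPM in WT. The CVP WT libraries were the lowest of all 12. For Col12a1 the log2 fold change was 1.23 ± 0.22 in CVP (adjusted p = 0.00117) and -0.33 in FoP, a difference of -1.56 ± 0.29 (adjusted p = 0.00773).

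Comparing WT FoP with WT CVP directly, Col12a1 was the only collagen past the threshold, with 0 lower, where 6.68% of all tested genes passed (3.77% higher and 2.91% lower). In edgeR 4 collagens were higher and 1 lower at an unadjusted p under 0.05, and DESeq2 placed 3 higher and 0 lower. Col12a1 had 52.3 ± 5.46 CPM in FoP WT and 22.5 ± 6.18 CPM in CVP WT (SD, n = 2 each), a log2 fold change of 1.22 ± 0.24 (adjusted p = 0.0192). The call was lost without CVP WT duplicate 2 (adjusted p = 0.121), FoP WT duplicate 1 (0.12) or FoP WT duplicate 2 (0.0738). Each WT group is a culture in duplicate.

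Col27a1, a fibrillar collagen of cartilage and other tissues, was the 1 collagen with a higher effect in FoP. In FoP, Col27a1 had 6.53 and 5.61 CPM in clone 2.5 and 5.74 and 4.43 CPM in clone 2.4, against 7.31 and 7.44 CPM in WT. In CVP, Col27a1 had 2.62 and 3.87 CPM in clone 2.10 and 3.71 and 4.55 CPM in clone 2.9, against 9.21 and 10.3 CPM in WT. Knock-out libraries were below the WT libraries in both lines. For Col27a1 the log2 fold change was -1.41 ± 0.19 in CVP (adjusted p = 6.64e-05) and -0.40 ± 0.19 in FoP (adjusted p = 0.138), a difference of 1.00 ± 0.28 (adjusted p = 0.0277). The difference no longer passed without any of the 4 WT libraries in turn (adjusted p = 0.0706 to 0.104) or without clone 2.5 (0.0631).

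Col8a1 was lower in FoP knock-out. In FoP, Col8a1 had 277 and 273 CPM in clone 2.5 and 224 and 207 CPM in clone 2.4, against 466 and 454 CPM in WT. In CVP, Col8a1 had 513 and 409 CPM in clone 2.10 and 298 and 305 CPM in clone 2.9, against 345 and 327 CPM in WT. The CVP clones lay on either side of their WT. For Col8a1 the log2 fold change was -0.91 ± 0.21 in FoP (adjusted p = 0.00925) and 0.18 in CVP, a difference of -1.09 ± 0.30 (adjusted p = 0.0383). The FoP call was lost without FoP WT duplicate 1 or 2 (adjusted p = 0.0605 and 0.0523) or clone 2.4 (0.0641). The difference was lost with no filter (adjusted p = 0.104), without any of the 4 WT libraries (0.101 to 0.12), without clone 2.4 or either of its duplicates (0.106, 0.0677 and 0.0602) and without clone 2.10 duplicate 2 (0.0608). It was also lost with culture as a random block (0.0662) and with the replicate block (0.0503).

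Col5a3, a minor chain of type V, was near the count minimum and moved in opposite directions. In FoP, Col5a3 had 2 and 2 counts in clone 2.5 and 5 and 5 counts in clone 2.4, against 21 and 31 counts in WT. In CVP, Col5a3 had 125 and 20 counts in clone 2.10 and 48 and 22 counts in clone 2.9, against 16 and 14 counts in WT. Clone 2.10 duplicate 1 was far above its own duplicate. For Col5a3 the log2 fold change was -2.82 ± 0.74 in FoP (adjusted p = 0.0121) and 1.93 ± 0.72 in CVP (adjusted p = 0.0416), a difference of -4.75 ± 1.04 (adjusted p = 0.00981). The CVP call was lost without clone 2.10 duplicate 1 (adjusted p = 0.134), clone 2.9 duplicate 1 (0.0565), any of the 4 WT libraries (0.0511 to 0.184) or clone 2.10 (0.0951), and with the replicate block (0.058). The FoP call was lost without FoP WT duplicate 2 (0.0997) or clone 2.5 (0.0864), and the difference without CVP WT duplicate 1 or 2 (0.0516 and 0.0501). With culture as a random block the calls in FoP (0.136), in CVP (0.228) and on the difference (0.109) were all lost.

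**Figure D4:**
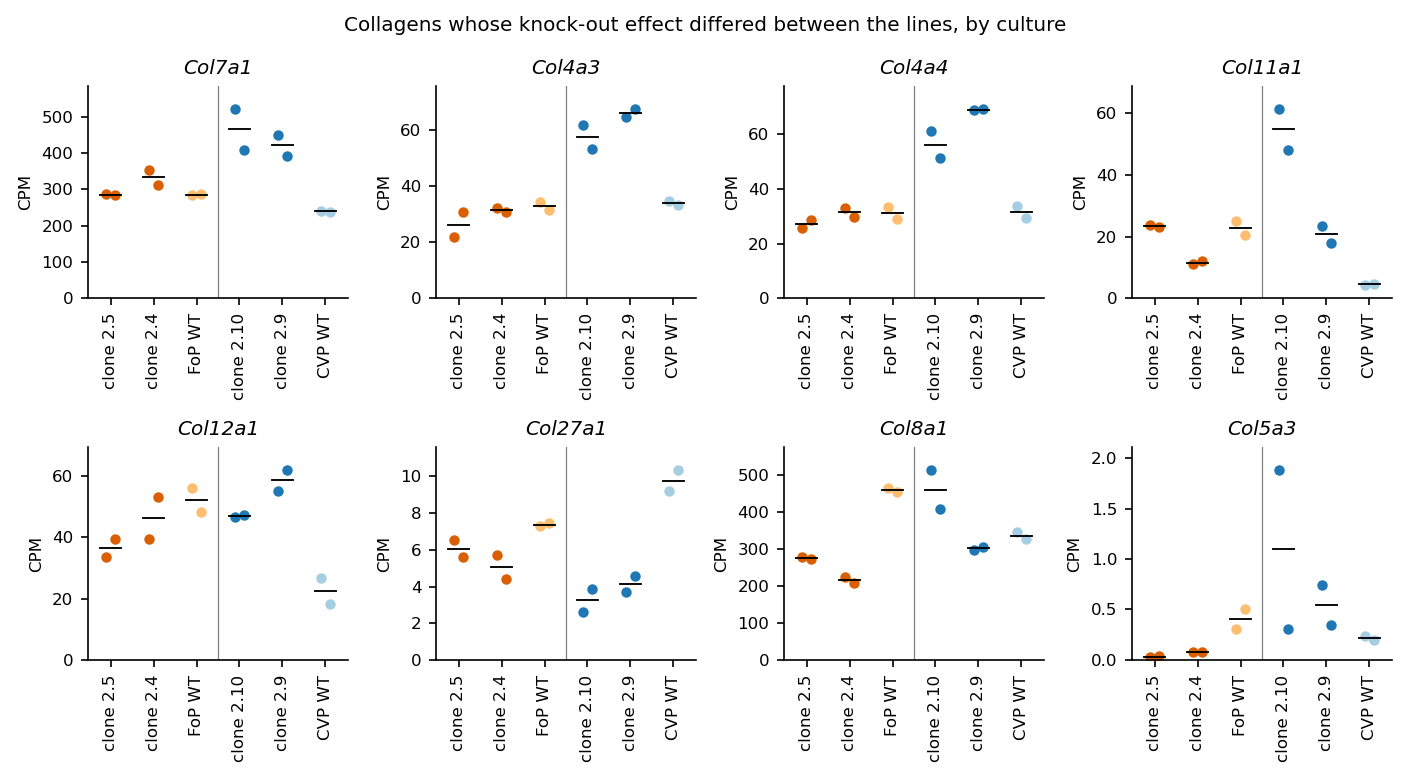
CPM of the 8 collagens whose knock-out effect differed between the lines, 2 dots per culture (duplicates) with their mean as a bar; clones 2.5 and 2.4 and FoP wild type are left of the line, clones 2.10 and 2.9 and CVP wild type right of it. Col4a3 and Col4a4 have high dots in both CVP clones (51.4 to 69.4 CPM) and lower dots elsewhere (21.9 to 34.8 CPM).

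The 2 knock-out clones of a line were then compared with each other in a fit of the 6 cultures, where the spread is that of duplicates. Col4a6, Col5a2, Col1a2, Col9a2, Col16a1, Col4a2, Col2a1 and Col20a1 are named here because they passed between clones, and were picked out after their values were seen. In FoP, clone 2.5 against clone 2.4 placed 5 collagens higher and 5 lower of 33, where 7.26% of all tested genes passed (3.53% higher and 3.72% lower). In CVP, clone 2.10 against clone 2.9 placed 5 higher and 2 lower, where 5.42% passed (2.89% higher and 2.54% lower). Removing clone 2.4 duplicate 2 or clone 2.5 duplicate 1 left 2 higher in FoP, and 2 or 3 lower. In the same FoP comparison, removing clone 2.4 duplicate 1 left 3 lower. Removing clone 2.10 duplicate 1 or duplicate 2, which enter it only through the shared fit, gave 8 lower between the FoP clones.

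The 5 higher collagens were the same genes in both lines: Col11a1, Col1a2, Col8a1, Col16a1 and Col9a2, and Col5a2 was lower in both. The clone comparisons of the lines share no library but come from the same fit and share its estimate of spread. Over all tested genes, 92 were higher in both clone comparisons, 15.3% of the FoP list and 18.7% of the CVP list, and 69 were lower in both. In opposite directions, 73 were higher between the CVP clones and lower between the FoP clones, and 65 the reverse. Of the collagens, 0 passed in opposite directions. Clones 2.5 and 2.10 were the clones with fewer Foxe1 counts in their line, with 707 and 660 counts in clone 2.5 against 1471 and 1292 in clone 2.4, and 487 and 547 in clone 2.10 against 1527 and 1432 in clone 2.9. The part of Foxe1 in these differences was not tested.

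Col1a2, an alpha chain of type I collagen, separated the clones of both lines. In FoP, Col1a2 had 1.73 and 1.63 CPM in clone 2.5, against 0.334 and 0.341 CPM in clone 2.4, with 1.77 and 0.954 CPM in WT. In CVP, Col1a2 had 2.92 and 2.01 CPM in clone 2.10, against 0.682 and 0.602 CPM in clone 2.9, with 1.63 and 1.44 CPM in WT. Clones 2.4 and 2.9 were the low ones. For Col1a2 the log2 fold change between clones was 2.31 ± 0.36 in FoP (adjusted p = 0.00099) and 1.94 ± 0.33 in CVP (adjusted p = 0.0022). Its partner Col1a1 passed between clones in neither line (adjusted p = 0.225 and 0.651). Per kb, Col1a2 stood at 1.44 and 1.55 of Col1a1 in clone 2.5 against 0.143 and 0.184 in clone 2.4, and at 2.28 and 3.27 in clone 2.10 against 0.505 and 0.456 in clone 2.9. These ratios rest on few counts. Col1a2 had 22 and 22 counts in clone 2.4 and 44 and 38 in clone 2.9. Col1a1 had 40 and 32 counts in clone 2.5 against 81 and 63 in clone 2.4, which also raises the FoP ratio in clone 2.5. In CVP, Col1a1 had 45 and 21 counts in clone 2.10 against 46 and 44 in clone 2.9. Col9a2 had 10.8 and 9.49 CPM in clone 2.5 against 6.18 and 4.49 CPM in clone 2.4, and 14.5 and 10.6 CPM in clone 2.10 against 4.16 and 3.50 CPM in clone 2.9. Its log2 fold change was 0.93 ± 0.18 in FoP (adjusted p = 0.00641, and 0.0855 without clone 2.4 duplicate 2 or 0.0642 without clone 2.5 duplicate 1) and 1.71 ± 0.19 in CVP (adjusted p = 3.84e-05).

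Col16a1, a fibril-associated collagen, and Col11a1 and Col8a1 completed this set, with log2 fold changes of 0.53, 1.02 and 0.35 in FoP and 0.65, 1.40 and 0.61 in CVP. The FoP calls on Col16a1 and Col8a1 and the CVP call on Col16a1 were each lost when a library of the clones concerned was left out (adjusted p = 0.0572 or 0.116 for Col16a1 in FoP without clone 2.4 duplicate 2 or clone 2.5 duplicate 1, 0.0862 and 0.0591 in CVP without clone 2.9 duplicate 1 or 2, and 0.0579 to 0.166 for Col8a1 in FoP without any of the 4).

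Col5a2, the main type V chain here, was lower in clones 2.5 and 2.10 than in the other clone of each line. In FoP, Col5a2 had 34.2 and 24.2 CPM in clone 2.5, against 43.8 and 51.5 CPM in clone 2.4, with 109 and 116 CPM in WT. In CVP, Col5a2 had 16 and 14.8 CPM in clone 2.10, against 205 and 185 CPM in clone 2.9, with 133 and 131 CPM in WT. The CVP clones stood on opposite sides of their WT. For Col5a2 the log2 fold change between clones was -0.70 ± 0.14 in FoP (adjusted p = 0.0232, and 0.111 without clone 2.4 duplicate 2) and -3.66 ± 0.16 in CVP (adjusted p = 1.8e-06). Against WT, both FoP clones were lower (-1.94 and -1.24 log2 in clones 2.5 and 2.4), and in CVP clone 2.10 was lower (-3.10) and clone 2.9 higher (0.57). In the fit of all 12 libraries the pooled comparison of knock-out with WT passed in neither line (adjusted p = 0.285 in FoP and 0.818 in CVP). In FoP, where the groups did not overlap, the same log2 change of -1.55 passed without clone 2.9 (adjusted p = 0.00427), without clone 2.10 (0.00456) and with the FoP line alone (0.0229).

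Col4a6 showed the largest difference between clones of any tested collagen in FoP. In FoP, Col4a6 had 376 and 213 counts in clone 2.5, against 8980 and 8034 counts in clone 2.4, with 6668 and 5557 counts in WT. In CVP, Col4a6 had 13696 and 12893 counts in clone 2.10, 13667 and 14357 counts in clone 2.9, and 3754 and 4137 counts in WT. Clone 2.5 stood apart from the other 10 libraries, and both CVP clones were above CVP WT. Clone 2.5 was lower than clone 2.4 by a log2 change of -4.75 ± 0.16 (26.8-fold, adjusted p = 2.41e-07), while its neighbour Col4a5 had 266 and 248 CPM in clone 2.5 against 266 and 264 CPM in clone 2.4 (adjusted p = 0.745). The promoter windows of both, printed above, are 1 of the head-to-head pairs, and the ratio of Col4a6 to Col4a5 per kb was 0.0190 and 0.0126 in clone 2.5 against 0.292 to 0.311 in FoP WT.

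The pooled comparison of Col4a6 did not pass in CVP (1.91 ± 1.29 log2, adjusted p = 0.265), with 211 ± 11.96 CPM in knock-out and 56.2 ± 1.73 CPM in WT (SD, n = 4 and n = 2). In that fit the spread is estimated over all 12 libraries, clone 2.5 included. With the CVP line alone it passed (1.90 log2, adjusted p = 1.01e-05), as it did without clone 2.5 (3.29e-08), and against WT clone 2.10 was higher by 1.85 and clone 2.9 by 1.97. In FoP the value was -0.46 with both clones (adjusted p = 0.81), 0.48 without clone 2.5 (0.000817) and -4.26 without clone 2.4 (8.48e-06).

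Among the remaining members lower in clone 2.5 than in clone 2.4, Col20a1, a fibril-associated collagen, had 1.54 and 0.920 CPM in clone 2.5 against 4.86 and 4.57 CPM in clone 2.4 (-1.93 ± 0.28 log2, adjusted p = 0.00049). Col2a1, the main cartilage collagen, had 0.222 and 0.174 CPM in clone 2.5 against 0.896 and 1.35 CPM in clone 2.4 (-2.49 ± 0.63, adjusted p = 0.0329). Col4a2 had 4.27 and 5.03 CPM in clone 2.5 against 11.1 and 15.8 CPM in clone 2.4 (-1.53 ± 0.37, adjusted p = 0.0487). The Col2a1 call was lost without any library of clones 2.5 and 2.4 in turn (adjusted p = 0.0759 to 0.215), and the Col4a2 call was lost under 13 alternatives (0.0501 to 0.213). Col25a1 was lower in clone 2.10 than in clone 2.9 (-1.27 ± 0.15, adjusted p = 7.33e-05).

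Although Col4a1 and Col4a2 start 21 bases apart and their chains form a common protein, their ratio was not constant. Per kb, Col4a2 stood at 0.326 and 0.444 of Col4a1 in clone 2.5, 1.62 and 1.58 in clone 2.4 and 0.883 and 0.493 in FoP WT. In CVP the ratio was 1.63 and 2.22 in clone 2.10, 0.863 and 1.11 in clone 2.9 and 0.535 and 0.319 in WT. The exons of these genes overlap on opposite strands, so an unstranded count would mix them near their starts.

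**Figure D5:**
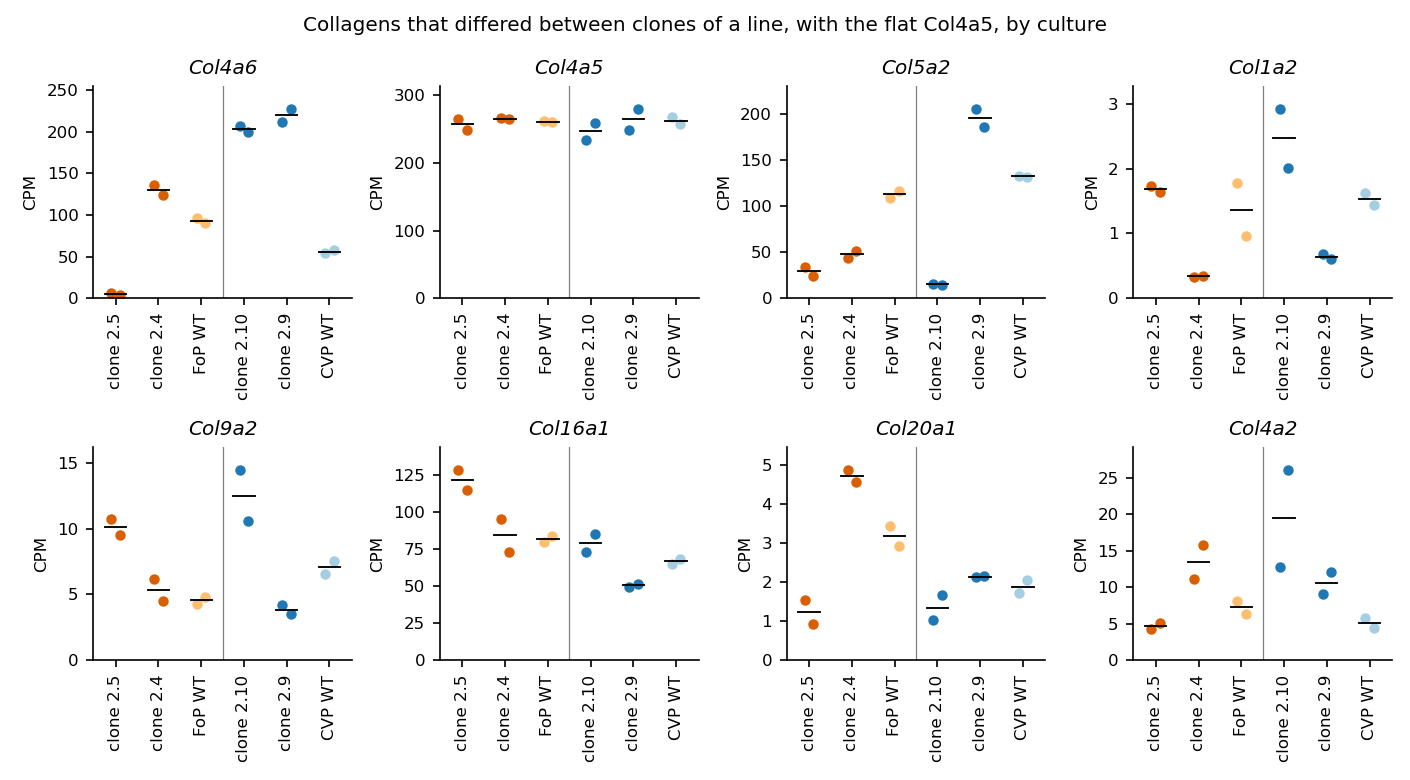
CPM of 7 collagens past the threshold between clones of a line and of Col4a5, which is not, 2 dots per culture (duplicates) with their mean as a bar; clones 2.5 and 2.4 and FoP wild type are left of the line, clones 2.10 and 2.9 and CVP wild type right of it. Col4a6 lies at 3.70 and 5.97 CPM in clone 2.5 and at 55.0 CPM or more in the other cultures, while Col4a5 lies at 234 to 280 CPM throughout.

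Set against their own WT one by one, clone 2.5 had 10 collagens higher and 7 lower, where 34.4% of all tested genes passed (16.3% higher and 18.1% lower). Clone 2.4 had 8 higher and 8 lower, against 32.4% of all genes (15.1% higher and 17.3% lower). Clone 2.10 had 18 higher and 4 lower, against 49.6% (25.2% higher and 24.4% lower), and clone 2.9 had 17 higher and 5 lower, against 47.1% (23.4% higher and 23.6% lower). The clones of a line share their WT libraries. The 7 collagens higher in both lines were higher in each of the 4 clones, and Col15a1 was lower in clones 2.4, 2.10 and 2.9.

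Genes that make, trim and bind collagen were counted from lists. Of 21 genes of collagen synthesis and folding, 10 were higher and 2 lower in FoP (57.1%, against 28.8% of all tested genes) and 8 higher and 4 lower in CVP (57.1%, against 46.4%). Fkbp14, a folding enzyme of the endoplasmic reticulum, was higher in FoP (1.40 ± 0.24 log2, adjusted p = 0.000856) and in CVP (2.94 ± 0.26, adjusted p = 3.24e-06). P4ha3, a prolyl hydroxylase subunit, was higher in both (1.39 and 2.57 log2). P3h3, a prolyl 3-hydroxylase family member, was also higher in both (0.80 and 1.37). P4ha1, a major prolyl 4-hydroxylase subunit, was lower in both, with 255 CPM in knock-out and 434 CPM in WT in FoP (-0.77 ± 0.10 log2, adjusted p = 0.000162), and 197 CPM in knock-out and 544.5 CPM in WT in CVP (-1.47 ± 0.10, adjusted p = 9.01e-07).

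Of 13 tested genes of procollagen processing and crosslinking, 4 were higher and 4 lower in FoP (61.5%, against 28.8% of all tested genes) and 7 higher and 2 lower in CVP (69.2%, against 46.4%). Adamts2, which removes the amino-terminal propeptide of fibrillar procollagen, had 247 counts over 4 FoP knock-out libraries against 14 over 2 WT libraries, and 514 against 20 in CVP (adjusted p = 0.0191 and 0.00389). Its counts were 22 and 38 in clone 2.5 and 107 and 80 in clone 2.4. In CVP they were 212 and 144 in clone 2.10 and 96 and 62 in clone 2.9. Tll1, a relative of the carboxy-terminal procollagen protease Bmp1, had 175 against 2 counts in FoP and 564 against 31 in CVP (adjusted p = 0.0456 and 0.0467). Most of the Tll1 counts in FoP came from clone 2.4 (95 and 64), with 11 and 5 in clone 2.5. In CVP, clone 2.10 had 236 and 219 Tll1 counts and clone 2.9 had 41 and 68. Pcolce2, an enhancer of carboxy-terminal procollagen cleavage, was lower in FoP (-1.49 log2). In CVP its knock-out libraries lay above WT, at 0.798 and 0.356 CPM in clone 2.10 and 0.667 and 0.412 in clone 2.9, against 0.293 and 0.222 CPM. The related Pcolce was higher in CVP (2.03). In FoP it had 4.37 and 3.54 CPM in clone 2.5 and 2.11 and 1.92 CPM in clone 2.4, against 2.14 and 1.78 CPM in WT.

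Of 14 tested genes of collagen breakdown and its inhibitors, 4 were higher and 4 lower in FoP (57.1%, against 28.8% of all tested genes) and 5 higher and 2 lower in CVP (50%, near the 46.4% of all genes). The metalloproteinases Mmp9 and Mmp13 were lower in FoP (-2.60 and -2.18 log2, adjusted p = 0.00896 and 0.000772), and Mmp7 had 2 counts over the FoP knock-out libraries against 118 over the WT libraries. In CVP, Mmp7 was lower (33 against 55 counts over 4 and 2 libraries, adjusted p = 0.042), and the inhibitors Timp3 and Timp1 were higher (1.73 and 1.15 log2). Timp3 was higher in FoP too (1.05), where Timp1 did not pass (-0.27). Of 8 tested collagen receptors, 2 were higher and 0 lower in FoP (25%, against 28.8% of all tested genes) and 1 higher and 2 lower in CVP (37.5%, against 46.4%), shares near or below those of all genes. The integrin chain Itga11 was higher in both (3.19 and 3.51 log2) from 4 and 16 counts over the WT libraries, Ddr1, a collagen-binding kinase, was higher in FoP (0.17), and Itga2 and Itga1 were lower in CVP (-0.83 and -0.66).

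Of 12 tested laminin, nidogen and proteoglycan genes of the basement membrane, 2 were higher and 4 lower in FoP (50%, against 28.8% of all tested genes) and 5 higher and 5 lower in CVP (83.3%, against 46.4%). Nid1, which links laminin to type IV collagen, was lower in both lines, with 2.28 CPM in knock-out and 10.4 CPM in WT in FoP and 1.54 CPM in knock-out and 17.9 CPM in WT in CVP (-2.18 and -3.53 log2, adjusted p = 0.0288 and 0.00162). Its relative Nid2 was higher in CVP, with 184 counts over 4 knock-out and 5 over 2 WT libraries (adjusted p = 0.00516). In FoP and CVP, Agrn, a heparan sulfate proteoglycan, was higher (0.30 and 0.59), the laminin chain Lama5 lower (-0.62 and -0.49) and the laminin chain Lamb1 higher (0.45 and 0.33). Of 10 tested fibril-associated proteoglycans and glycoproteins, 6 were higher and 1 lower in FoP (70.0%, against 28.8% of all tested genes) and 5 higher and 1 lower in CVP (60.0%, against 46.4%). Postn, a matricellular protein, was higher in FoP with 4208 CPM in knock-out and 881 CPM in WT (2.26 ± 0.36 log2, adjusted p = 0.00159), and in CVP with 3738 CPM in knock-out and 1438 CPM in WT (1.38 ± 0.34, adjusted p = 0.009). Fmod, a fibril-binding proteoglycan, was higher in both (3.22 and 2.03), from 4 and 22 counts over the WT libraries. Fbn1, the microfibril protein fibrillin, was also higher in both (0.75 and 2.93), and Dcn, a small proteoglycan of connective tissue, was lower in both (-1.87 and -2.11).

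Beside these results stand markers of the epithelium and of other cell types. Of the 10 epithelial markers, 1 was higher and 2 lower in FoP (30.0%, against 28.8% of all tested genes) and 2 higher and 5 lower in CVP (70.0%, against 46.4%). The 14 fibroblast markers, 8 of them tested and led by Vim, summed to 53.5 to 77.4 CPM in FoP knock-out and 74.5 to 89.8 CPM in FoP WT. In CVP they summed to 92.5 to 151 CPM in knock-out and 58.3 to 67.4 CPM in WT. Mean Vim there was 104.5 CPM in knock-out and 31.8 CPM in WT. Prrx1 went the other way, with 3.73 and 25.6 CPM, as did Dcn, with 0.318 and 1.37 CPM. Of the 8, 1 was higher and 1 lower in FoP (25%, against 28.8% of all tested genes) and 3 higher and 2 lower in CVP (62.5%, against 46.4%). Col1a1, Col1a2 and Col3a1 are themselves on that list. The 7 cartilage markers, which include Col2a1 and Col9a1, summed to 508 to 539 CPM in FoP knock-out and 393 to 399 CPM in FoP WT, and to 485 to 628 CPM in CVP knock-out and 320 to 408 CPM in CVP WT, most of it Sox9, which tongue epithelium also expresses. The 6 myoepithelial markers, led by Krt14 of basal keratinocytes, summed to 2770 to 3953 CPM in FoP knock-out and 2812 to 2831 CPM in FoP WT, and to 4079 to 5490 CPM in CVP knock-out and 1739 to 1947 CPM in CVP WT. The 7 smooth muscle and pericyte markers, led by Notch3, summed to 164 to 296 CPM in FoP knock-out and 161 to 194 CPM in FoP WT, and to 227 to 413 CPM in CVP knock-out and 184 to 204 CPM in CVP WT. The 7 nerve and glia markers, led by Ngfr, summed to 116 to 132 CPM in FoP knock-out and 158 to 169 CPM in FoP WT, and to 77 to 107 CPM in CVP knock-out and 235 to 244 CPM in CVP WT. Endothelial and skeletal muscle markers summed to less than 4 CPM in every library. The part of such cells in the collagen values was not tested.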

How the data were processed

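Poly(A) RNA of 12 mouse tongue organoid libraries was sequenced with a stranded kit, per the labels' protocols. The values are the raw counts per gene that the authors deposited for 55367 symbols; the submitters' processing notes name STAR, featureCounts and hg38, without versions. The symbols are mouse, and the strand setting and annotation of the counting are not given in the sources used here. Locations and exon lengths came from the mouse annotation GENCODE M21 (GRCm38), matched by symbol, with all 44 collagens matched. An exon length is the joint length of all annotated exons of a gene, whether or not they are used in these cells.

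Libraries fell into 4 groups (line by label). Genes were filtered with filterByExpr (17076 tested), normalised with TMM factors and tested by robust quasi-likelihood of edgeR 4.0.16 (R 4.3.3) over all 12 libraries. Adjustment was by Benjamini-Hochberg across the table, with a threshold of 0.05; clones were compared in a fit of 6 cultures. CPM used TMM-scaled totals, and a standard error is the fold change on the log2 scale divided by the square root of F. The fits were also run on simulated data drawn without culture or clone effects. Such data cannot check the p-values where duplicates share a culture and clones differ. Totals of 59.3 to 73.6 M counts set the precision: 10 counts, the minimum for detection, is a fraction of 1 CPM.

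The members and gene lists were chosen with earlier results of these data known. The collagens named are those past the threshold in knock-out against WT with a log2 change of at least 1 in size, or past it for the difference or between WT lines with the same size and a mean of at least 1 CPM, and the 5 with the highest level per kb; of each list and line, up to 3 genes past the threshold with the largest change are named. Members that differed between clones, and Col7a1, were named after their values were seen. Alternatives were DESeq2 1.42.0 (size factors and Wald test), limma 3.58.1 voom with culture as a random block, no filter, at least 1 CPM in 4 libraries, summed duplicates, a replicate block, halved counts (in case both mates of a pair were counted), a test against 2-fold, and each library or clone left out. Fits of 1 line alone, and the alternatives for each clone against its WT, were added after seeing the data.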

Additional observations from a re-analysis of the deposited data

Results flagged for a closer look

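In 4 of 66 groups of 4 knock-out libraries examined, a library lay far from the other 3, as its gap over the whole range of the group exceeded the critical value of Dixon's test. Chance gives about 1 in 20 for independent normal values. Each group here is 2 clones in duplicate, so that rate does not apply and the count cannot be set against it. Col1a1 in clone 2.10 duplicate 2 had 0.325 CPM against 0.677 to 0.713 CPM in the other CVP knock-out libraries (gap over range 0.908). Col4a5 in clone 2.5 duplicate 2 had 248 CPM against 264 to 266 CPM in the other FoP knock-out libraries (0.910), and Col4a3 in clone 2.5 duplicate 1 had 21.9 CPM against 30.6 to 32.1 CPM (0.857). Col9a1 in clone 2.5 duplicate 2 had 0.278 CPM against 0.0619 to 0.0953 CPM (0.845), all from 16 counts or fewer. The knock-out effect differed between the lines, FoP minus CVP and tested in edgeR, for Col27a1 (log2 1.00) and for Col7a1 (-0.77), Col4a3 (-1.05), Col4a4 (-1.08), Col11a1 (-3.44), Col5a3 (-4.75), Col8a1 (-1.09) and Col12a1 (-1.56).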

How the results depend on the processing

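Single collagens were followed in a comparison only where they passed in at least 1 fit; the sign of the others was not followed. Of the followed results under the alternatives, 1762 kept their direction and side of the threshold, 140 no longer passed, 91 passed that had not, and 15 reversed. With duplicates summed per culture, the count higher in CVP moved to 8, those in FoP to 0 higher and 0 lower, the difference between lines to 0 higher and 0 lower, and WT FoP against CVP to 0 higher. Against a 2-fold change, CVP kept 4 higher and 0 lower, and edgeR passed 0 in FoP (5 higher and 2 lower at an unadjusted p under 0.05), 0 in the difference (0 and 3) and 0 between WT lines (2 and 0). In FoP, 5 were lower without clone 2.9, 2.10 or 2.4. For the difference, 4 were lower with voom, 2 higher and 11 lower without clone 2.10, and 0 higher without clone 2.5. Between WT lines, 2 were higher with the 1 CPM filter and 3 with DESeq2. Without a filter, 8 were higher and 8 lower between the FoP clones. The cause of these shifts was not tested, and the shares of all tested genes under the alternatives are not given.

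Leaving out each library in turn gave 3 to 7 higher and 0 to 4 lower in FoP, 11 to 14 higher and 2 to 3 lower in CVP, 0 to 1 higher and 4 to 8 lower for the difference, and 0 to 1 higher and 0 lower between WT lines. It gave 2 to 6 higher and 2 to 8 lower for clone 2.5 against clone 2.4, and 4 to 7 higher and 2 to 3 lower for clone 2.10 against clone 2.9. Against WT, the ranges were 8 to 10 higher and 4 to 10 lower for clone 2.5, 6 to 10 higher and 5 to 8 lower for clone 2.4, 15 to 19 higher and 3 to 4 lower for clone 2.10, and 13 to 18 higher and 3 to 6 lower for clone 2.9.

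Among the followed results, those reversed without a whole clone were (log2) Col5a2 (0.57) and Col8a1 (-0.16) in CVP without clone 2.10, Col4a6 (0.48), Col2a1 (0.46) and Col20a1 (0.57) in FoP without clone 2.5, and, for the difference, Col5a2 (1.55) and Col9a2 (-0.058) without clone 2.9. With each library left out in turn, followed results with values on both sides of 0 were Col5a2 in CVP (-0.875 to 0.038), Col2a1 in FoP (-0.90 to 0.40), Col20a1 in FoP (-0.44 to 0.20) and Col7a1 between CVP clones (-0.046 to 0.31).

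Duplicate numbers did not pair the cultures, with correlations of -0.056 to 0.11 between same-numbered libraries. With the replicate block, 7 collagens were higher and 3 lower in FoP, 12 higher and 3 lower in CVP, and 1 higher and 6 lower for the difference. The count of detected collagens was 33, 31 with a minimum of 20 counts, in 4 libraries or with halved counts, and 44 with 1 count.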
